A study of Mus musculus with 12 samples.

Results

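Quercetin given together with an adipogenic cocktail was compared with the cocktail alone in 3T3-L1 cells, a mouse fibroblast-like line that stores fat once induced. The comparison rests on 6 of the 12 libraries of the study, chosen by their titles: 3 from cells induced with dexamethasone, IBMX and insulin (DMI for short) and 3 from cells that had DMI and quercetin. All 14855 genes that passed a low-count filter were tested. The cells are wild type per the labels, were induced 2 days after they became confluent with 0.5 mM IBMX, 1 uM dexamethasone and 10 ug/ml insulin until day 2, and then had insulin alone for 2 days and plain medium with 10% serum. All libraries were taken on day 6. Quercetin is a plant flavonol; its dose and its days of exposure are not in the labels. The other groups, used for reference and for the shared estimate of the spread, were 3 libraries of untreated cells and 3 of cells given DMI with luteolin. The same treatment text stands on every sample, and only titles and treatment labels set the untreated group apart. Whether replicates are separate cultures is not stated, and p-values then reflect how far these libraries spread, which may be technical.

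Adipogenesis in this line is driven by hormones that switch on C/EBP transcription factors and then the nuclear receptor PPARgamma, which in turn activates the genes of lipid storage, insulin-responsive glucose uptake and adipokine secretion. Mature adipocytes also gain receptors for fatty acids, lactate and hormones that tune lipolysis. The progenitor state is marked by genes such as Dlk1 and Pdgfra, and by a matrix- and actin-rich programme that recedes as fat accumulates.

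Library totals ran from 14522182 to 19436796 counts. Libraries stood apart within both groups. Levels of the 24 listed mature adipocyte markers, tested or not, were summed. The sum was 30953, 35152 and 9550 CPM (counts scaled to TMM-adjusted library size) in DMI libraries 1, 2 and 3. With quercetin it was 10515, 9919 and 4019 CPM. DMI library 3 therefore lay inside the range of the quercetin libraries on this sum. Its share of mitochondrial counts was 2.87%, with 4.72% and 4.28% in the other DMI libraries and 3.29% to 4.65% with quercetin. Quercetin library 3 departed from its group with the GC content of the genes, as described at the end. The median SD between replicates on the log2 CPM scale was 0.327 with quercetin and 0.244 with DMI, against 0.105 in untreated cells.

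With quercetin more genes fell than rose. Of the genes tested, 126 fell (0.848% of those tested) and 24 rose (0.162%), together 150 (1.01%) at an adjusted p under 0.05 (edgeR quasi-likelihood test over all 12 libraries, Benjamini-Hochberg). The falls were larger. Their median log2 fold change was -2.34, and 76 of the 126 were lower by at least 4-fold. The rises had a median of 0.81, and 6 of the 24 reached 2-fold. The median over all genes tested was 0.02, and 48.4% of them had a fitted value below 0. The 3 quercetin libraries lay wholly outside the range of the 3 DMI libraries in 2085 genes (14%), 1092 of them below (7.35%) and 993 above (6.68%), and all 150 called genes were among these.

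The number of calls changed widely when single libraries were left out. Each such fit also reran the low-count filter, which then kept 15200 to 15241 genes, so the count reflects both changes. It was 2646 of 15241 genes without DMI library 3 and 0 without DMI library 1 or 2. List counts given below for the fit without DMI library 3 stand beside that total. It was 575, 1 and 4 without quercetin library 1, 2 and 3, and 273 without luteolin library 3, which is in neither group compared. Leaving out luteolin library 1 or 2 left 9 or 21 calls, and leaving out an untreated library left 13 or 14. A fit to the 6 libraries alone called 0 genes, with 1602 at an unadjusted p under 0.05, while DESeq2 over the 12 libraries called 984. No called gene changed the sign of its fold change under any of the 23 alternatives. The groups did not overlap in any called gene, so refits of the same counts could hardly reverse a sign, and this adds no support. DMI library 3 was the DMI library nearest to quercetin in 119 of the 126 genes that fell and in 18 of the 24 that rose.

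**Figure D1:**
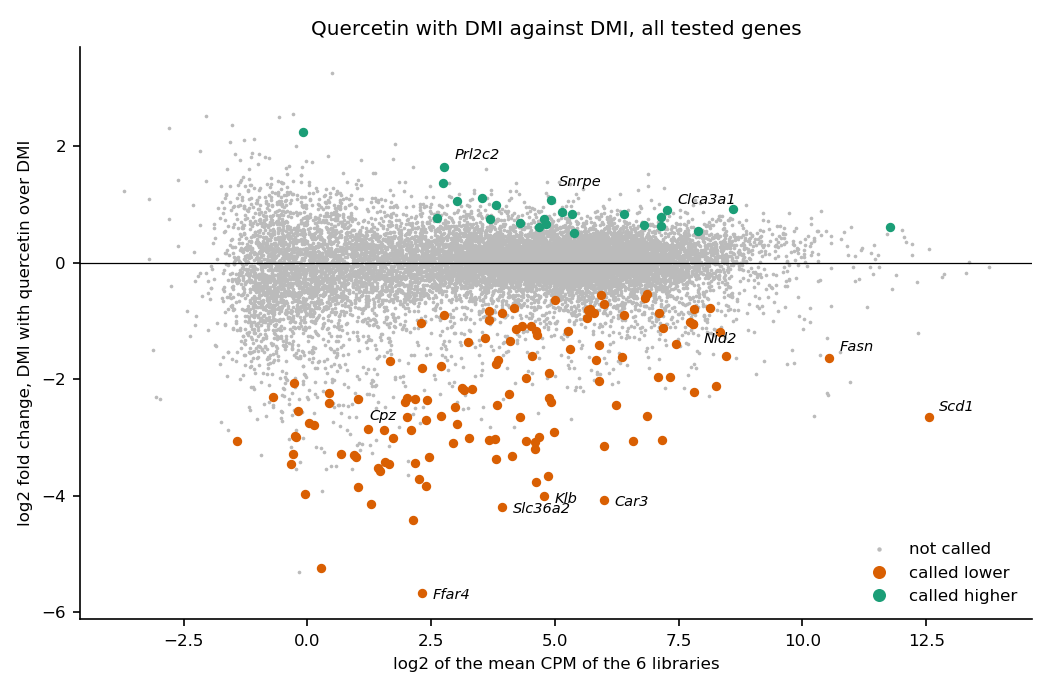
Log2 fold change of DMI with quercetin over DMI (vertical axis) against the log2 mean CPM of the 6 libraries (horizontal axis) for 14855 genes, with grey points for genes not called, orange for the 126 that fell and green for the 24 that rose. The falls reach down to -5.67 at Ffar4 and the most abundant called gene is Scd1, while the called rises stay at or below 2.25.

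Ffar4, the G protein-coupled receptor for long-chain fatty acids (chr19:38097079-38114263, GRCm38, plus strand), showed the largest fall. It stood at 12.7, 13.6 and 3.201 CPM in the DMI libraries and at 0.218, 0.0506 and 0.307 CPM with quercetin. All quercetin libraries were below all DMI libraries, and untreated cells had 0 counts. The log2 fold change was -5.67 (SE 0.83, edgeR adjusted p = 0.0318). The quercetin libraries held 10 counts of it in all against 452 with DMI, a depth-adjusted ratio of 52.6 with a 95% exact counting interval of 28.3 to 110.5 that covers counting error only.

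Slc36a2, a proton-coupled transporter of small amino acids (chr11:55158470-55185077), went from 40.1, 38.8 and 8.56 CPM to 2.02, 1.31 and 1.41 CPM. DMI library 3 was the lowest of its group, yet above every quercetin library. The log2 fold change was -4.20 (SE 0.61, edgeR adjusted p = 0.0318). Car3, a cytosolic carbonic anhydrase abundant in fat cells (chr3:14863512-14872523), stood at 155, 183 and 22.1 CPM with DMI and at 8.95, 10.1 and 2.27 CPM with quercetin. The third library was the lowest of each group, and the groups did not overlap (log2 fold change -4.07, SE 0.82, edgeR adjusted p = 0.0484).

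Scd1, the desaturase that makes oleate and palmitoleate (chr19:44394451-44407709), was the most abundant of the called genes. Its levels were 12874, 13632 and 4599 CPM with DMI, 2002, 1684 and 1290 CPM with quercetin, and 125, 120 and 212 CPM in untreated cells. Quercetin-treated cells thus kept a level above that of untreated cells in every library. The log2 fold change against DMI was -2.64 (SE 0.41, edgeR adjusted p = 0.0273). Per transcript length, the authors' FPKM of Scd1 fell from 2146 ± 1030 to 340 ± 74.7 (SD, n = 3), while Ffar4 was at 7.06 ± 4.12 with DMI. Without DMI library 3 the log2 fold changes of Ffar4, Slc36a2, Car3 and Scd1 were -6.09, -4.63, -4.55 and -2.996, each still called. Without quercetin library 3 they were -6.12, -4.10, -3.63 and -2.47, with adjusted p of 0.0785, 0.084, 0.0926 and 0.0785 (edgeR), so all 4 calls were lost. In the 6 libraries alone the adjusted p was 0.126, 0.126, 0.19 and 0.19 (edgeR).

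**Figure D2:**
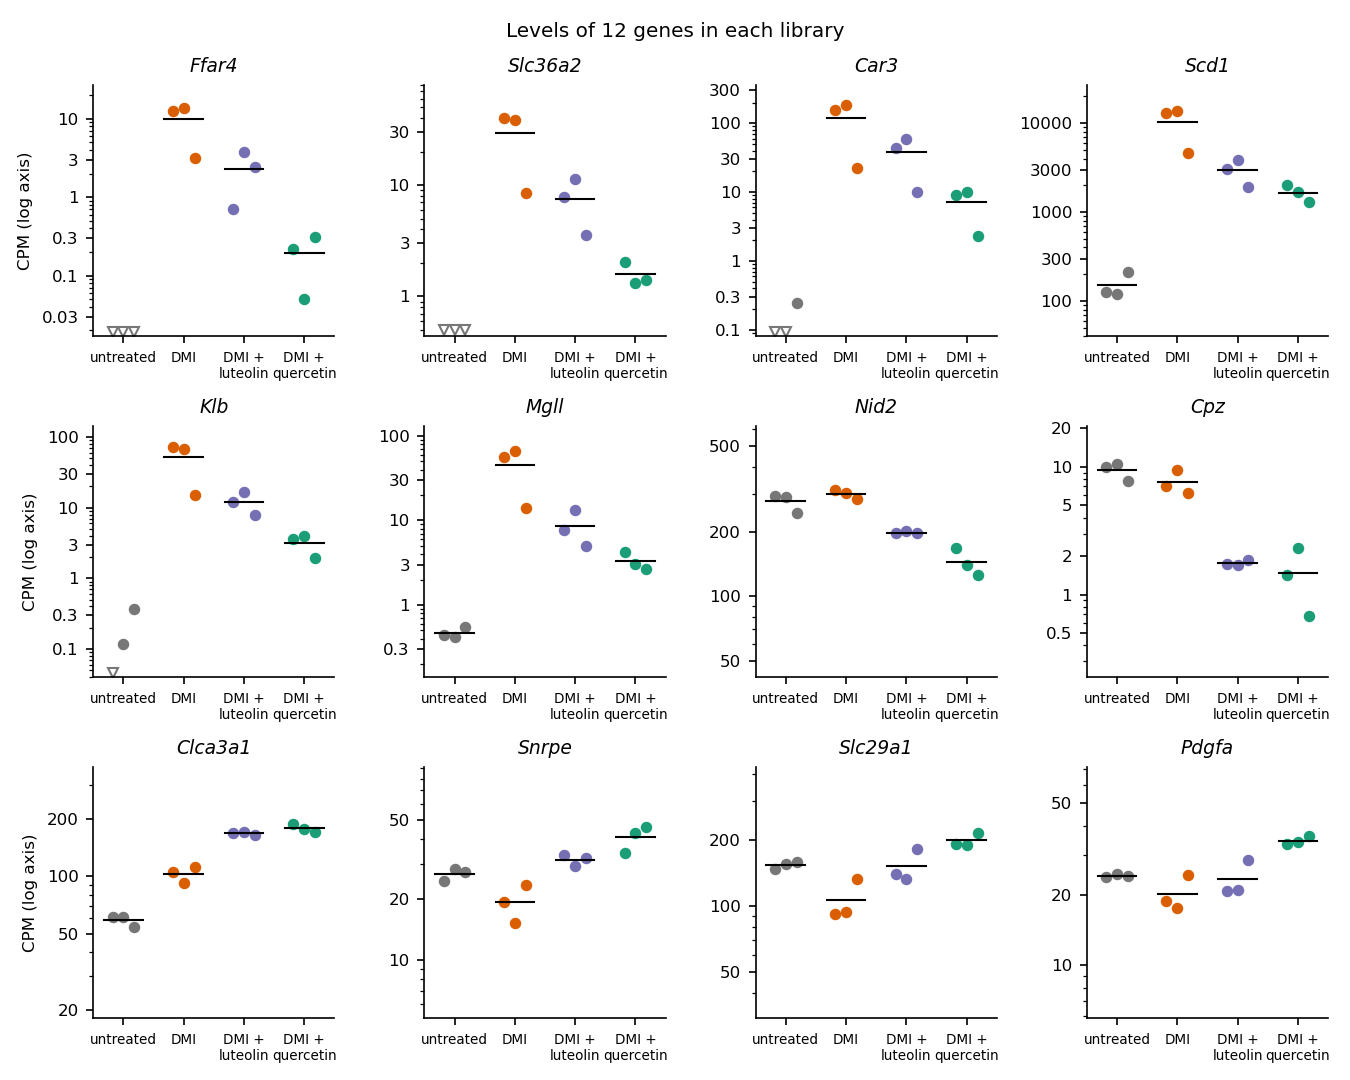
CPM on log axes for 12 genes in each library of the 4 groups; points are libraries 1 to 3 from left to right, lines are group means where no library is at 0, and open triangles at the bottom stand for 0 counts. DMI library 3 is the lowest DMI library for the first 7 genes and Cpz, and Cpz and Nid2 lie below the untreated libraries with quercetin.

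The stretch around the transcription start, 250 bases before to 50 after, was taken from RefSeq (GRCm38.p6) for the called genes that have an entry, 86 of 126 lower and 19 of 24 higher. It is shown for Ffar4 (chr19:38096829-38097128, plus strand), which fell most, Fasn (chr11:120824498-120824797, minus strand), an abundant lipid gene that fell, Cpz (chr5:35525577-35525876, minus strand), which was called under most alternatives, and Clca3a1 (chr3:144760928-144761227, minus strand), the rise called under most alternatives. Capitals mark CCAAT and GGGCGG, each searched on both strands.
Ffar4: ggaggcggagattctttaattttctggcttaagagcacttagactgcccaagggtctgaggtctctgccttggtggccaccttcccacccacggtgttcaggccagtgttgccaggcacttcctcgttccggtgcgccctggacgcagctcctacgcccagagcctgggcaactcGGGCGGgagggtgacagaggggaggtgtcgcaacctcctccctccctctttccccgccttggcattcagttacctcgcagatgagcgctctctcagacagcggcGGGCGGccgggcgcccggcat
Fasn: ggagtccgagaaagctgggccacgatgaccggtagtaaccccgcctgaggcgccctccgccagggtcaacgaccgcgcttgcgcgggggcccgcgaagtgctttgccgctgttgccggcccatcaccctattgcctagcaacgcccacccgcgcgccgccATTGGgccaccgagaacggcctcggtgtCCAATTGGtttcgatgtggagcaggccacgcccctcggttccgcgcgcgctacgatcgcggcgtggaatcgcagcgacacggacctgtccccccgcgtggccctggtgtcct
Cpz: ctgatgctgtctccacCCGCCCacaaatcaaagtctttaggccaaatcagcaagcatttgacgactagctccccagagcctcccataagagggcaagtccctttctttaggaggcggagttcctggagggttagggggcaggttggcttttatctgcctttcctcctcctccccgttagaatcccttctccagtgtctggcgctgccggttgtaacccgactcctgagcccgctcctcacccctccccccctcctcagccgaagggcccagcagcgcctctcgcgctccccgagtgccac
Clca3a1: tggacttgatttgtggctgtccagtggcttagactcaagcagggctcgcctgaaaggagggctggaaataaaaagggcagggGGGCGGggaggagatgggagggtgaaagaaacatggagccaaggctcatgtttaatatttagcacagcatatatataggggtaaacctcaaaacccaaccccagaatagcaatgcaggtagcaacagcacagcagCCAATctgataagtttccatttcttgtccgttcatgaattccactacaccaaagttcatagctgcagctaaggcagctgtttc
Ffar4 holds 2 GC boxes (GGGCGG), Fasn 3 CCAAT boxes, Cpz 1 GC box and Clca3a1 1 of each. The pair of adjoining CCAAT matches in Fasn, on opposite strands, overlap each other, and no CCAAT match overlaps a GC box in these stretches. Over the genes tested, 39.5% of promoters hold CCAAT and 63.6% GGGCGG. The shares were 45.3% and 53.5% among the genes that fell, and 42.1% and 57.9% among those that rose. The shares of TATAAA were 7.09%, 12.8% and 21.1% over the genes tested, lower and higher, those of the E-box CACGTG 10.1%, 11.6% and 0%, and those of the nuclear receptor motif AGGTCA 12.1%, 15.1% and 10.5%. These are descriptions of letters in a window, given without a test.

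Receptors by which fat cells sense hormones and metabolites held the most calls after the mature adipocyte markers. Of 17 tested, 6 fell and none rose (1.01% of all genes were called), with a median log2 fold change of -1.69. The falls include Ffar4, a marker gene of this comparison chosen with earlier results known, so the count is partly built in. Klb, the co-receptor that lets FGF21 signal, stood at 72.7, 67.8 and 15.2 CPM with DMI and at 3.66, 3.94 and 1.96 CPM with quercetin (log2 fold change -4.01, SE 0.56, edgeR adjusted p = 0.0246). Every quercetin library was below every DMI library, and quercetin library 3 was the lowest. Its partner receptor Fgfr1, also in the list, was not called. Hcar1, the lactate receptor that restrains lipolysis, went from 71.5, 74.2 and 15.5 CPM to 5.24, 3.44 and 4.05 CPM (log2 fold change -3.66, SE 0.55, edgeR adjusted p = 0.0269). Hcar2, the related receptor for beta-hydroxybutyrate and niacin, fell by 2.44, and Npr3, the natriuretic peptide clearance receptor, fell by 1.09 on the log2 scale. Adrb1, the beta-1 adrenergic receptor, had 69 counts with DMI and 10 with quercetin, a ratio of 8.03 (95% counting interval 4.12 to 17.5). Without DMI library 3, 11 of the receptors were called, where 2646 of all 15241 genes were, and without quercetin library 3 none.

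The list of fatty acid synthesis and desaturation had 4 falls among 19 tested (0.848% of all genes fell), with 18 fitted below 0 and a median of -0.82. The falls include Scd1, a marker gene of this comparison chosen with earlier results known, so the count is partly built in. Fasn, the fatty acid synthase, stood at 2654, 2785 and 1293 CPM with DMI, 905, 571 and 703 CPM with quercetin, and 537, 525 and 696 CPM untreated. Each quercetin library was below each DMI library, quercetin library 2 lay within the untreated range and the others above it. The fall of Fasn was 3.09-fold (log2 fold change -1.63, SE 0.29, edgeR adjusted p = 0.042), and that of Acaca, which makes malonyl-CoA for it, was 2.03-fold (edgeR adjusted p = 0.0484). Pnpla3, a lipid droplet hydrolase induced by lipogenic signals that the lipolysis list holds too, fell 9.91-fold from a mean of 31.8 to 3.19 CPM. Tkt, of the pentose phosphate pathway, fell 2.28-fold. It was the sole call among 21 tested targets of the antioxidant regulator NRF2, where 1.01% of all genes were called.

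Genes that store and break down triglyceride were mostly fitted below 0. All 15 tested genes of triglyceride assembly were fitted below 0 (median -0.98), with 1 call, where 1.01% of all genes were called. That call was Pck1, the phosphoenolpyruvate carboxykinase that feeds glycerol synthesis in fat cells, which fell from 45.7 ± 25.9 to 5.74 ± 2.42 CPM (SD, n = 3; edgeR adjusted p = 0.0484). In lipolysis, 3 of 13 fell (median -1.74), where 0.848% of all genes fell, and 1 of the 3 was Pnpla3, already counted with fatty acid synthesis. Mgll, which cleaves monoglycerides, went from 56.3, 66.6 and 14.2 CPM to 4.26, 3.08 and 2.70 CPM (log2 fold change -3.76, SE 0.52, edgeR adjusted p = 0.0246). G0s2, an inhibitor of the main triglyceride lipase, fell 6.22-fold, so the list's calls include both an enzyme of breakdown and a brake on it. None of 10 droplet coat and fusion genes was called. Cidec, which fuses droplets, was at 2459, 3108 and 672 CPM with DMI and 493, 414 and 106 CPM with quercetin, without overlap, but its log2 fold change of -2.62 carried an SE of 0.80 (edgeR adjusted p = 0.106). Plin1, the droplet coat protein, overlapped between groups, since DMI library 3 (298 CPM) was below quercetin library 1 (323 CPM).

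The mature adipocyte list had 7 falls among 22 tested members (0.848% of all genes fell) and all 22 fitted below 0, with a median of -1.97. The falls include Ffar4 and Car3, marker genes of this comparison chosen with earlier results of these data known. The count is therefore partly built in and is no test. Adipocyte number and RNA per adipocyte cannot be told apart in these bulk libraries. Lep, the satiety hormone leptin, had 108 counts with DMI and 3 with quercetin, a ratio of 41.9 (95% counting interval 14.0 to 206). Retn, resistin, went from 313, 389 and 65.0 CPM to 43.0, 33.5 and 16.0 CPM (log2 fold change -3.05, SE 0.61, edgeR adjusted p = 0.0484). Slc2a4, the glucose transporter GLUT4 that insulin brings to the cell surface, went from 142, 164 and 36.0 CPM to 18.8, 13.9 and 5.65 CPM (8.87-fold lower, edgeR adjusted p = 0.0443).

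Better-known markers of the same list were not called. Adipoq, adiponectin, stood at 1553, 1880 and 472 CPM with DMI and at 609, 641 and 131 CPM with quercetin. DMI library 3 lay below quercetin libraries 1 and 2, so the groups overlapped (log2 fold change -1.50, SE 0.68, edgeR adjusted p = 0.227). Fabp4, the fatty acid carrier, overlapped in the same way (2565 ± 1565 against 892 ± 597 CPM, SD, n = 3; edgeR adjusted p = 0.246). In the list of fatty acid uptake the acyl-CoA synthetase Acsl1 and the lipase Lpl were among the most abundant members, and neither was called. Acsl1 was at 3214 ± 1865 and 781 ± 387 CPM without overlap (SD, n = 3; edgeR adjusted p = 0.0827), and Lpl at 7209 ± 3498 and 3138 ± 667 CPM with overlap (edgeR adjusted p = 0.105). Without DMI library 3, 17 of the mature adipocyte list were called with a median of -2.38, and without quercetin library 3 none was, with a median of -1.56.

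Among secreted factors 4 of 17 fell (median -1.42), where 0.848% of all genes fell. These added Nrg4, a neuregulin released by fat cells, and Camp, the cathelicidin antimicrobial peptide. Nrg4 fell 5.14-fold from 11.5, 10.96 and 4.49 CPM to 1.69, 1.47 and 2.09 CPM (edgeR adjusted p = 0.0273). Camp fell 14.2-fold from 10.7, 14.1 and 4.93 CPM to 0.982, 0.809 and 0.245 CPM (edgeR adjusted p = 0.0246). The other large falls named by the rule were those of 2610528A11Rik, Smoc1, a matrix protein that binds calcium, Ndrg2, of the N-myc downstream-regulated family, and Il2ra, the interleukin-2 receptor alpha chain. Their log2 fold changes were -3.72, -3.46, -3.43 and -3.42 (edgeR adjusted p = 0.0263, 0.0484, 0.042 and 0.042), and none overlapped between the groups. Further falls named here, of Irs3, Angptl8, Mrap and Hp, were chosen after their values were seen. Irs3, an insulin receptor substrate, had a log2 fold change of -3.45. Angptl8, which controls lipoprotein lipase through its relatives, had -3.33. Mrap, the accessory protein of the corticotropin receptor, had -2.44, and Hp, haptoglobin, had -3.19.

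**Figure D3:**
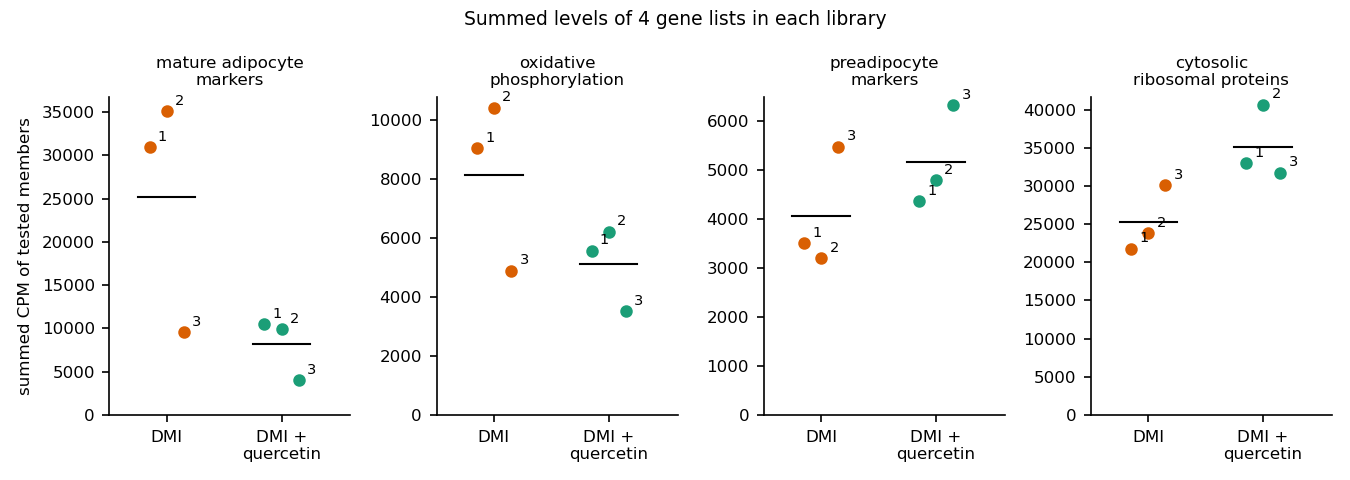
Summed CPM of 4 gene lists in each DMI and quercetin library, numbered by replicate, with lines at group means and axes from 0. The sums hold all listed members in the data, also those that failed the filter, although the axis label names tested members. On the mature adipocyte and oxidative phosphorylation sums DMI library 3 lies among the quercetin libraries, on the preadipocyte sum it lies between quercetin libraries 2 and 3, and on the cytosolic ribosomal sum the groups do not overlap.

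Of 20 adipogenic transcription factors, 1 was called, where 1.01% of all genes were. Klf15, a Kruppel-like factor of glucose and amino acid metabolism, fell from 53.04, 64.9 and 12.3 CPM to 7.31, 5.31 and 2.70 CPM (log2 fold change -3.08, SE 0.62, edgeR adjusted p = 0.0484). Every quercetin library was below every DMI library. Pparg, the master regulator, was at 346, 357 and 101 CPM with DMI and at 114, 126 and 60.1 CPM with quercetin. DMI library 3 was below quercetin libraries 1 and 2 (log2 fold change -1.42, SE 0.43, edgeR adjusted p = 0.106), and Cebpa likewise overlapped (log2 fold change -1.55, edgeR adjusted p = 0.113). Without DMI library 3, 9 of the list were called, Pparg among them (log2 fold change -1.81, edgeR adjusted p = 0.0042).

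In glucose uptake and insulin signalling 2 of 19 fell, where 0.848% of all genes fell. They were Slc2a4 and Pde3b, the phosphodiesterase through which insulin restrains lipolysis, which fell 5.25-fold. Of 18 genes of glycolysis and hypoxia 3 fell (0.848% of all genes fell), by smaller amounts. Egln3, an oxygen-sensing prolyl hydroxylase, went from 72.0, 73.2 and 29.8 CPM to 20.96, 19.7 and 21.7 CPM (2.81-fold lower, edgeR adjusted p = 0.042). Its quercetin libraries were almost level, and DMI library 3 stood nearer to them than to its own group. Gpi1 and Pfkp, which handle hexose phosphates, fell 1.72-fold and 1.63-fold. Car2, a second carbonic anhydrase, fell 10.3-fold. Of 8 tested carbonic anhydrases the called ones were Car2 and Car3, where 1.01% of all genes were called. Car3 is a marker gene of this comparison chosen with earlier results known.

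No gene of 4 lists of mitochondrial metabolism was called, and most were fitted below 0. All 25 oxidative phosphorylation genes and all 22 of the citric acid cycle and pyruvate entry were fitted below 0, as were 20 of 21 for fatty acid oxidation and 19 of 20 for catabolism of branched-chain amino acids. The medians were -0.60, -0.84, -0.91 and -0.80. Atp5b, a subunit of ATP synthase, stood at 2098, 2554 and 1094 CPM with DMI and at 1345, 1379 and 719 CPM with quercetin, with DMI library 3 inside the quercetin range (edgeR adjusted p = 0.188). Pcx, pyruvate carboxylase, overlapped too (1973 ± 1049 against 658 ± 417 CPM, SD, n = 3; edgeR adjusted p = 0.133). Cs, citrate synthase, Hadha, of fatty acid oxidation, and Bcat2, which starts branched-chain amino acid breakdown, had log2 fold changes of -1.18, -0.97 and -1.74, all with overlapping groups. Without DMI library 3, 20, 20, 19 and 18 members of these lists in the same order were called, and without quercetin library 3 none. The 12 mRNAs encoded by mitochondrial DNA were split, with 7 fitted below 0 and 5 above, a median of -0.07 and no call, and 77 mitochondrial ribosomal proteins one of -0.15 and no call.

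**Figure D4:**
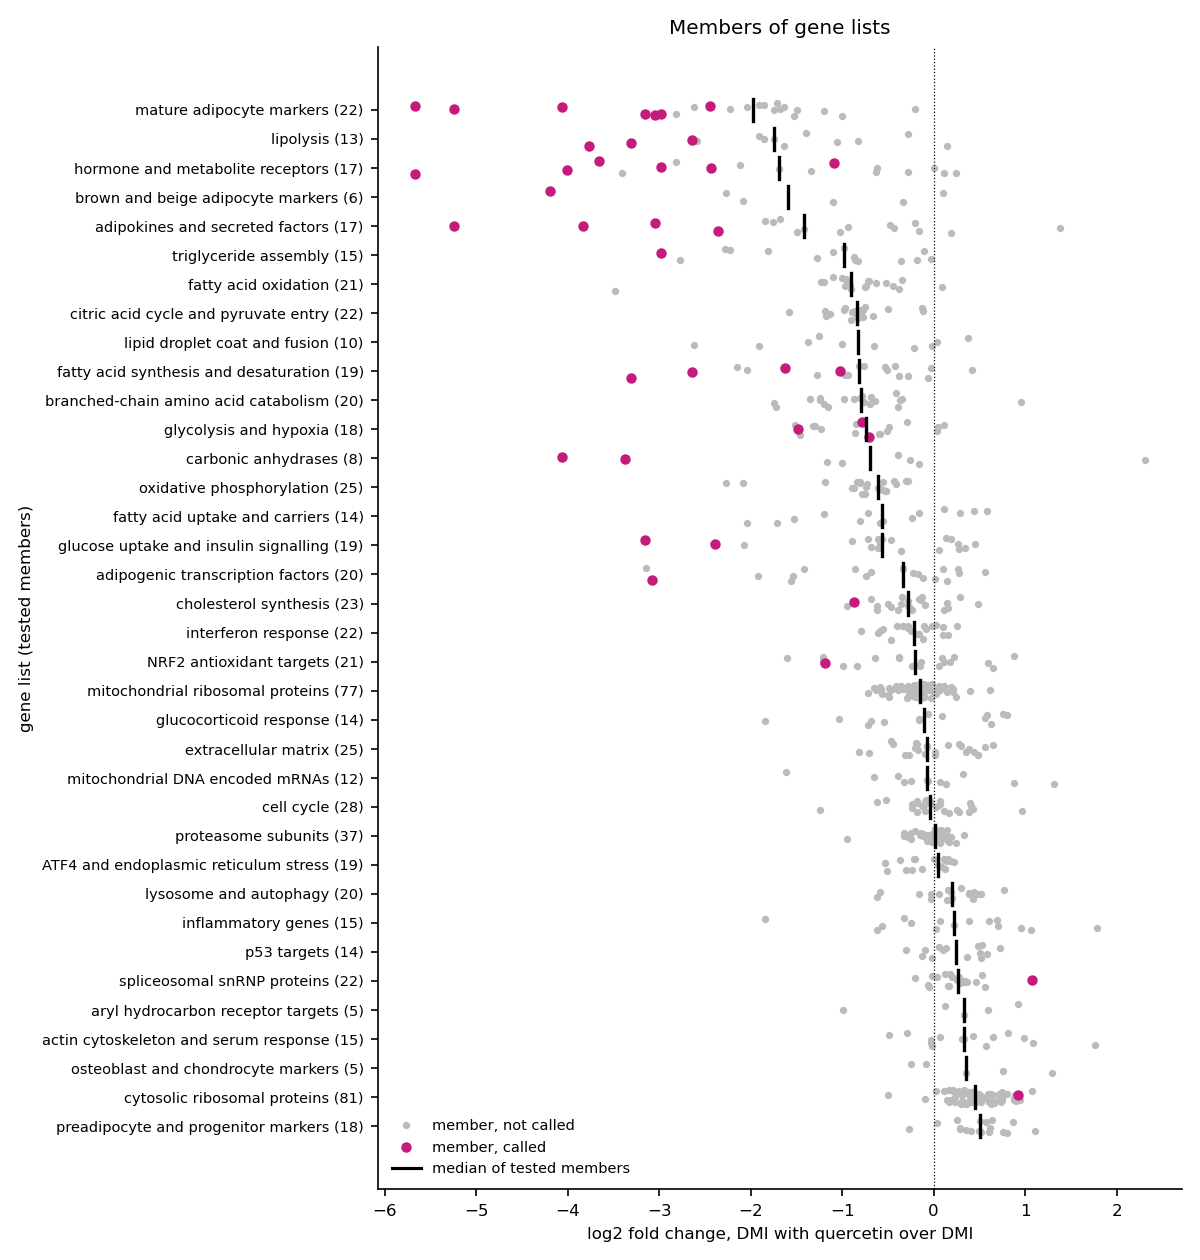
Log2 fold change of DMI with quercetin over DMI for the tested members of 36 gene lists, 1 row a list with its number of tested members; grey points were not called, magenta points were called and black bars are medians. Adipocyte, lipolysis and receptor lists lie farthest to the left (medians -1.97, -1.74 and -1.69) and preadipocyte markers and cytosolic ribosomal proteins farthest to the right (0.51 and 0.46).

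Progenitor markers lay on the other side. Of 18 tested, 17 were fitted above 0 with a median of 0.51, against 0.02 over all genes, and none was called. Twist2, a basic helix-loop-helix repressor, came nearest, at 15.5 ± 0.870 CPM with DMI and 28.1 ± 6.34 CPM with quercetin (SD, n = 3; edgeR adjusted p = 0.0506). Mmp3, the stromelysin matrix protease, followed (log2 fold change 1.10, edgeR adjusted p = 0.0513). Dlk1, the classical preadipocyte gene, was at 1739, 1562 and 3120 CPM with DMI and 1996, 2352 and 3321 CPM with quercetin, which overlapped. Pdgfra, the PDGF receptor that marks progenitors, was at 635 ± 50.01 and 774 ± 46.3 CPM (SD, n = 3), without overlap (edgeR adjusted p = 0.187), and Itgb1, integrin beta 1, overlapped. The sum of the list was 3513, 3207 and 5483 CPM with DMI and 4362, 4796 and 6331 CPM with quercetin. Of 25 extracellular matrix genes 12 were fitted above 0 (median -0.07), and of 15 actin and serum response genes 10 (median 0.33), with no call in either. The actin-binding proteins Flna and Actn1 had log2 fold changes of 0.31 and 0.65 with overlapping groups (edgeR adjusted p = 0.386 and 0.19).

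mRNAs of ribosomal proteins were mostly fitted above 0, by small amounts. Of 81 cytosolic ribosomal proteins 79 were fitted above 0, with a median of 0.46 and 1 call, where 1.01% of all genes were called. The sum over all 84 listed was 21805, 23868 and 30110 CPM with DMI and 33014, 40651 and 31743 CPM with quercetin. Here the groups did not overlap. The called member was Rpl39, at 223, 251 and 326 CPM with DMI and 385, 460 and 667 CPM with quercetin (log2 fold change 0.92, SE 0.20, edgeR adjusted p = 0.0496). Rpl39, like other ribosomal genes, has processed copies in the genome among which reads may be shared, so its own level is uncertain. Library 3 of both groups was the highest for it. Under DESeq2 26 of the 81 were called, where 984 of all 14851 genes were. Without DMI library 3, 38 were called, where 2646 of all 15241 genes were, and without quercetin library 3 none. The medians for the last pair were 0.59 and 0.56.

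Snrpe, a core Sm protein of the spliceosome, rose from 19.3, 15.3 and 23.7 CPM to 34.0, 42.8 and 46.0 CPM (log2 fold change 1.07, SE 0.17, edgeR adjusted p = 0.0273). The groups were separate, and the untreated libraries lay between 24.7 and 28.3 CPM. It was the sole call among 22 spliceosomal proteins (18 fitted above 0, median 0.26), where 1.01% of all genes were called. Snrpe too has processed copies. Prl2c2, a proliferin, had the largest fold change of the named rises, from 3.40, 2.12 and 4.31 CPM to 8.08, 8.90 and 13.9 CPM (log2 fold change 1.64, SE 0.32, edgeR adjusted p = 0.0469). Its near-identical relatives Prl2c3 and Prl2c5 were not called, and reads may be split among them, so this value is uncertain.

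The remaining rises named by the rule were between 1.69-fold and 2.09-fold. Slc29a1, the equilibrative nucleoside transporter, rose from 92.4, 94.3 and 132 CPM to 193, 190 and 216 CPM (1.88-fold, edgeR adjusted p = 0.042). Kitl, the ligand of the KIT receptor, stood at 60.7, 58.4 and 62.4 CPM and at 84.7, 92.4 and 147 CPM (1.78-fold, edgeR adjusted p = 0.0484). The DMI libraries of Kitl were nearly level, and quercetin library 3 was well above its group. Pdgfa, a growth factor for mesenchymal progenitors, went from 18.9, 17.7 and 24.4 CPM to 33.2, 34.0 and 36.0 CPM (1.69-fold, edgeR adjusted p = 0.0484). Snai1, a zinc finger repressor of epithelial genes, rose 1.78-fold and Epha4, an ephrin receptor, 1.99-fold. Slc9a9, an endosomal sodium-proton exchanger, rose 2.09-fold. Atp6v0c, a subunit of the vacuolar proton pump with processed copies of its own, rose 1.70-fold, and Lrrn4cl 1.83-fold.

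Clca3a1, of the calcium-activated chloride channel regulator family, was the rise that held under most alternatives, 17 of 23. It stood at 105, 91.9 and 112 CPM with DMI, at 187, 176 and 169 CPM with quercetin and at 61.4, 61.0 and 54.0 CPM in untreated cells (log2 fold change 0.79, SE 0.11, edgeR adjusted p = 0.0246). Both groups were tight and apart, and the quercetin level was farther from the untreated one than the DMI level was. Among the falls, Nid2 and Cpz held under most, 19 of 23. Nid2, the basement membrane protein nidogen 2, went from 312, 303 and 285 CPM to 168, 140 and 125 CPM (log2 fold change -1.05, SE 0.13, edgeR adjusted p = 0.0246). Cpz, a secreted carboxypeptidase, went from 7.11, 9.39 and 6.28 CPM to 1.42, 2.33 and 0.675 CPM (log2 fold change -2.34, SE 0.34, edgeR adjusted p = 0.0246). In neither gene did DMI library 3 stand apart from its group. These 2 genes were chosen after their values were seen. Across all 150 called genes the median was 9 of 23 alternatives, and 47 genes were called in at least 12 of them.

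Xenobiotic, stress and inflammatory lists had few or no calls. Of 5 tested aryl hydrocarbon receptor targets none was called. Cyp1b1 was at 305 ± 52.7 CPM with DMI and 383 ± 97.3 CPM with quercetin (SD, n = 3; edgeR adjusted p = 0.306). Nqo1, the quinone reductase shared with the NRF2 list, was at 14.2 ± 0.581 CPM with DMI and 21.5 ± 1.48 CPM with quercetin (SD, n = 3), without overlap (log2 fold change 0.60, SE 0.16, edgeR adjusted p = 0.0803). The 22 interferon response genes had a median of -0.22, and none was called. Without DMI library 3 the median was 0.48 and 6 were called, where 2646 of all 15241 genes were. Of 14 glucocorticoid response genes 6 were fitted above 0 and 8 below, from -1.84 to 0.80, and none was called. Groups overlapped for Angptl4 (log2 fold change -0.16, edgeR adjusted p = 0.862). Fkbp5 and Mt1, both induced by glucocorticoids and fitted above 0, did not overlap but were not called. Fkbp5 was at 89.4 ± 8.61 and 134 ± 26.2 CPM (SD, n = 3; edgeR adjusted p = 0.0928) and Mt1, a metallothionein, at 242 ± 82.8 and 420 ± 47.2 CPM (edgeR adjusted p = 0.0905). Groups overlapped for the adhesion molecule Vcam1, the cytokine Csf1, the lysosomal Lamp1, the p53 target Ccng1 and the chaperone Hsp90b1. Cdkn2c, an inhibitor of CDK4 and CDK6 listed with the cell cycle, was at 333 ± 139 and 141 ± 47.9 CPM without overlap (SD, n = 3; edgeR adjusted p = 0.0779). The remaining medians were 0.23 for 15 inflammatory genes, 0.05 for 19 genes of ATF4 and endoplasmic reticulum stress, -0.11 for 14 glucocorticoid response genes, 0.20 for 20 lysosome and autophagy genes, 0.25 for 14 p53 targets, -0.04 for 28 cell cycle genes, 0.02 for 37 proteasome subunits, -0.57 for 14 carriers of fatty acid uptake, and -0.33 for the transcription factors. None of these lists but the last held a call.

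Markers of macrophages, endothelium and epithelium were scarce, as were those of muscle apart from Des, desmin. Those listed for osteoblasts and chondrocytes were mixed, with 5 of 11 past the filter. The 13 listed macrophage, endothelial and epithelial markers summed to 3.26 to 5.75 CPM with DMI and 2.84 to 3.56 CPM with quercetin. The 3 that passed the filter had log2 fold changes of -0.42 to 0.21. The leukocyte marker Ptprc had 0 counts with DMI and 2 with quercetin, the endothelial marker Pecam1 9 and 6, and the macrophage marker Adgre1 and the epithelial marker Epcam 0 in both. The 10 listed muscle markers summed to 9.17 to 28.0 CPM with DMI and 3.31 to 12.01 CPM with quercetin. Most of this sum was Des, at 25.6, 25.9 and 8.43 CPM with DMI and 10.7, 7.28 and 3.19 CPM with quercetin. Its untreated mean was 1.85 CPM, and the DMI and quercetin groups overlapped (log2 fold change -1.49, edgeR adjusted p = 0.118). Of the muscle markers 2 passed the filter, and the muscle regulators Myod1 and Myog had 0 counts. The 11 listed osteoblast and chondrocyte markers summed to 129, 116 and 309 CPM with DMI and 271, 281 and 514 CPM with quercetin. The 5 tested had a median log2 fold change of 0.35 and no call. Of the list 3 were called without DMI library 3, where 2646 of all 15241 genes were. The untested ones had few counts with DMI and with quercetin, Sp7 22 and 8, Bglap 1 and 6 and Ibsp 3 and 0. Acan had 0 in both, Col2a1 3 and 2, and Col10a1 19 and 6. Sox9, a transcription factor of cartilage and of fat progenitors that the progenitor list holds too, was at 43.4, 40.97 and 77.6 CPM with DMI and 96.4, 87.5 and 90.9 CPM with quercetin, without overlap (log2 fold change 0.76, SE 0.22, edgeR adjusted p = 0.101). The part of these genes in other results was not tested. Of 6 tested brown and beige markers 1 was called, where 1.01% of all genes were. It was Slc36a2, a marker gene of this comparison chosen with earlier results known. Ucp1, the uncoupling protein of brown fat, had 0 counts in all 6 libraries.

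Between quercetin and luteolin, the other polyphenol of the study, a flavone that lacks one hydroxyl group of quercetin, 0 of 14855 genes were called with edgeR (0%), with 1327 at an unadjusted p under 0.05 (8.93%), 3 calls with DESeq2 (0.0214%) and 450 with no low-count filter (1.55%). Doses are unknown, so the values are side by side only. The log2 difference, quercetin minus luteolin, was -3.56 for Ffar4 (95% interval -5.47 to -1.65), -2.26 for Slc36a2 (-3.58 to -0.93), -2.40 for Car3 (-4.08 to -0.71) and -0.83 for Scd1 (-1.66 to 0.004), each with an edgeR adjusted p of at least 0.541. For Clca3a1 it was 0.08 (-0.16 to 0.33) and for Cpz -0.25 (-1.02 to 0.52). These intervals do not show that the compounds act alike. Both compounds were tested against the same 3 DMI libraries.

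The quercetin libraries differed from each other with the GC content of the genes. Across genes, the correlation of a library's deviation from its group mean with GC content was 0.428, 0.27 and -0.491 in quercetin libraries 1, 2 and 3, against -0.14, 0.122 and -0.001 with DMI. Library 3 was above its group by a median of 0.41 on the log2 scale in the lowest of 10 equal groups of genes by GC content and below by 0.36 in the highest. The median GC content was 52.0% in the genes that fell, 46.9% in those that rose and 49.4% in all tested. A fit with GC offsets, added after seeing the data, called 280 genes, 221 lower and 59 higher, and kept 145 of the 150. The part of this pattern in any single call was not tested.

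**Figure D5:**
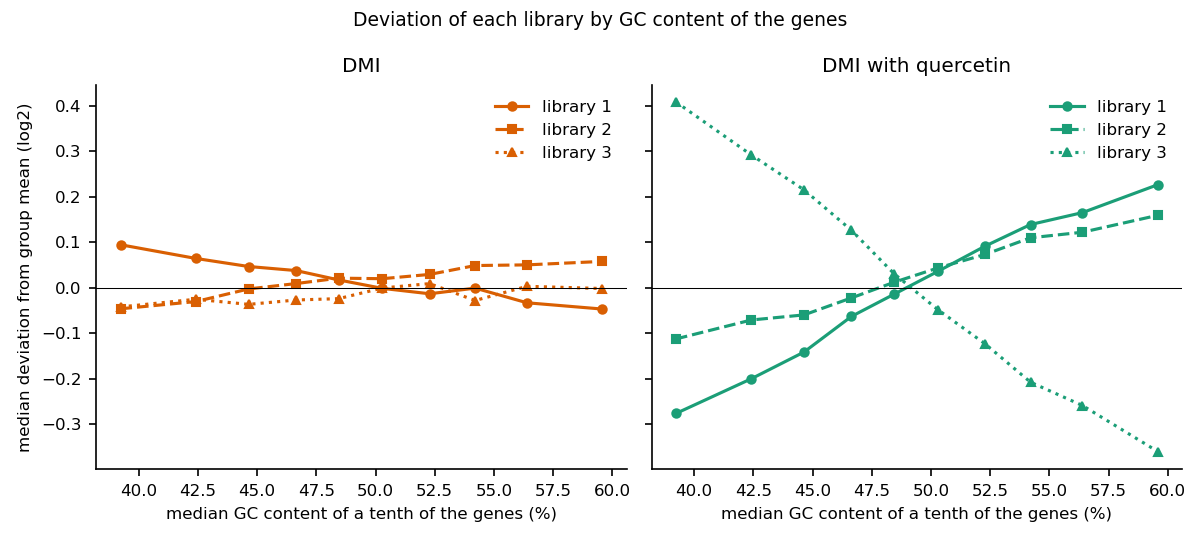
Median deviation from the group mean (log2 CPM) in 10 equal groups of genes ordered by GC content, against the median GC content of each, for the 3 DMI libraries on the left and the 3 quercetin libraries on the right. Quercetin library 3 runs from 0.41 down to -0.36 and the other quercetin libraries run the opposite way, while the DMI libraries stay within 0.1 of 0. The deviations of a gene sum to 0 within a group, so opposite runs are partly built in.

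By the authors' deposited table, adjusted p-values under 0.05 for this comparison were held by 365 of 24130 genes (1.51%), 23 higher and 342 lower. Of the 150 genes called here 119 were among them (79.3%), which is 32.6% of the authors' genes, and all 119 had the same sign.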

How the data were processed

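RNA of 12 3T3-L1 libraries was sequenced by the submitters. Raw counts per gene were deposited. The submitters' processing notes name featureCounts 1.5.0-p3 and CASAVA 1.8.2, and no aligner is named in any source at hand. The authors' deposited FPKM served only to give levels per length, and the log2 fold changes and adjusted p-values (p-value columns) of the authors' deposited comparison were only set beside the results here. The notes name mm9, but 98.3% of the gene positions in the table equal GENCODE M21 on GRCm38, so coordinates are GRCm38. The 27 symbols turned into dates were restored by gene identifier. The library kit does not mark strand, so overlapping and antisense genes cannot be separated.

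The test was that of edgeR 4.0.16, run in R 4.3.3: filterByExpr (14855 of 54532 genes), TMM, quasi-likelihood F test with 1 term per group over 12 libraries, Benjamini-Hochberg over all tested genes, threshold 0.05. CPM use TMM-adjusted totals, and log2 CPM a prior count of 2. Fold changes are fitted values. A gene is called where its adjusted p is under the threshold. Alternatives were RLE scaling, library totals, no filter, 1 CPM in 3 libraries, protein-coding genes, DESeq2 1.42.0, limma-voom 3.58.1, the 6 libraries alone, a replicate block, GC offsets and leaving out each library.

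The comparison, its 4 marker genes, the 39 gene lists and the naming rule were chosen with earlier results of these data known. Named were the 4 marker genes (Ffar4, Slc36a2, Car3, Scd1), the 12 largest falls and rises among called protein-coding genes with a mean of at least 5 CPM in either group and no overlap, up to 4 called members of a list, and up to 3 abundant members of a list without calls; others are named as chosen after their values were seen, and Adipoq, Pparg, Cebpa, Twist2, Mmp3, Hcar2 and Npr3 were also chosen so. By chi-square, all replicate pairs differed by more than sampling noise (at least 2.68 per gene). Results on some genes are not reported here.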

Additional observations from a re-analysis of the deposited data

How the results depend on the processing

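Of the 150 calls (24 higher, 126 lower), the count was 169 (20 and 149) with RLE scaling, 59 (9 and 50) with library totals only, 55 (6 and 49) with a filter of 1 CPM in 3 libraries, 50 (4 and 46) over protein-coding genes, 280 (59 and 221) with GC offsets, 984 (255 and 729) with DESeq2, 1737 (592 and 1145) with no low-count filter, 1 (0 and 1, Nid2) with limma-voom and 0 (0 and 0) in only the 6 libraries. With a replicate block it was 1395 (495 and 900) over the 12 libraries and 706 (127 and 579) in the 6. Leaving out one replicate gave 0 to 2646 calls, 0 to 1089 higher and 0 to 1557 lower. The cause was not tested. Deviations of same-numbered libraries correlated at 0.068, 0.279 and 0.335, and quercetin library 1 correlated best with DMI library 2 (0.28). Library 3 of either group correlated at -0.392 to -0.084 with libraries 1 and 2 of the other. The deviations of a gene sum to 0 within a group, so negative correlations beside positive ones are partly built in. Luteolin library 3 was also the lowest of its group for Scd1 (1895 CPM, against 3070 and 3882 CPM). What the third libraries share was not tested. The labels do not say what a replicate number marks, so the numbers were not taken as pairs. Between quercetin and luteolin the count was 0 in the reported fit, 450 with no low-count filter, 14 with a replicate block, 3 with DESeq2 and 0 to 10 when one replicate was left out. For 89 named genes, 2045 values under the alternatives held 0 changes of sign, which was close to fixed for called genes, whose groups did not overlap. Of these values 1267 kept their side of the threshold, 679 lost the call and 99 gained one. Of the 39 gene lists 27 kept the sign of their median under every alternative, and the other 12 have medians of -0.27 to 0.35; with quercetin library 3 left out, no list held a call. With 3 libraries a group, the spread between libraries limits these results, and the part of depth was not tested.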

Other observations

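A subset of the genes that fell ended below their level in untreated cells. Quercetin libraries all lay above untreated in 63 of the 126 genes that fell (50%), against 2197 of all genes tested (14.8%). In 31 of the 126 genes that fell (24.6%), all quercetin libraries lay below all untreated libraries, against 2434 of all genes tested (16.4%). The falls were called on the same low quercetin values, so an excess below untreated is partly built in and is no test. Cpz stood at 9.95, 10.5 and 7.67 CPM in untreated cells and 6.28 to 9.39 CPM with DMI, but at 1.75, 1.71 and 1.86 CPM with luteolin and 0.675 to 2.33 CPM with quercetin. Plagl1, an imprinted zinc finger gene, was at 53.7, 55.2 and 47.3 CPM untreated, 42.9, 34.7 and 26.9 CPM with DMI, 11.5, 10.0 and 10.6 CPM with luteolin and 11.9, 11.8 and 20.4 CPM with quercetin. Nrk, a kinase of the germinal centre family, followed the same order of levels, with means of 12.3, 7.67, 2.16 and 2.23 CPM. With either compound all 3 libraries of these 3 genes lay below all untreated and all DMI libraries. Tgm2, a transglutaminase that crosslinks proteins, and Rab3d, a GTPase of secretory vesicles, were higher with DMI than without (14.2 against 7.67 and 34.1 against 11.7 CPM) and at 3.16 and 8.64 CPM with quercetin. The 4 groups' means are given as values, and the genes were chosen after these were seen.

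Of the 24 genes that rose, all quercetin libraries lay above all untreated libraries in 15 (62.5%), against 2197 of all genes tested (14.8%), and below them in 3. The rises were called on the same high quercetin values, so an excess above untreated is partly built in and is no test. Fth1, the heavy chain of the iron store ferritin, was at 2776 CPM in untreated cells and 2758, 2692 and 2748 CPM with DMI, and at 3772, 4753 and 4055 CPM with quercetin (log2 fold change 0.62, SE 0.13, edgeR adjusted p = 0.0484). Ferritin genes have processed copies among which reads may be shared. Pmp22, a myelin and growth arrest protein, was at 224 CPM untreated, 192 ± 6.16 CPM with DMI and 281 ± 26.8 CPM with quercetin (SD, n = 3). Snhg8, a small nucleolar RNA host transcript, went from 7.33 CPM with DMI to 15.8 CPM, above the untreated mean of 9.79 CPM. Dctd, a deaminase of deoxycytidylate, rose from 9.57 to 16.1 CPM and remained below the untreated mean of 20.95 CPM.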
